A study of Saccharomyces cerevisiae with 12 samples.

Results

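The genes described here encode proteins of the mitochondrial ribosome of Saccharomyces cerevisiae, the budding yeast. They are 45 nuclear genes whose names begin with MRPL, MRP or RSM, chosen by systematic name, and all 45 were among the 6845 features listed for the bikaverin strains and the 6818 listed for the pRS416 strains. RNA was sequenced at 36 h from 12 libraries in 4 groups of 3, and the comparison in each pair is of a strain labelled high with one labelled low in SAM (S-adenosylmethionine, which gives methyl groups to DNA, RNA, proteins and lipids). Strain YJ-04 (low SAM) and strain YJ-06 (high SAM) both held an introduced set of genes for bikaverin, a red pigment of fungi, and strain YJ-08 (low SAM) and strain YJ-09 (high SAM) both held the plasmid pRS416, a yeast shuttle vector. The means by which SAM was raised, the parent strain and any further allele were not given in the sources used here. Each group is 1 strain, and the labels do not say that its 3 replicates are separate cultures, so a p-value here reflects no more than the scatter among these libraries, which could be technical.

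The mitochondrial ribosome translates the few mRNAs of the mitochondrial genome, most of which encode core subunits of the respiratory chain and of ATP synthase. Its rRNAs are transcribed from mitochondrial DNA, whereas nearly all of its proteins are encoded in the nucleus, made in the cytosol and imported. In budding yeast, the mRNAs of many of these proteins are bound by Puf3, an RNA-binding protein of the Pumilio family that recognises a short element in the 3′ UTR and controls the decay and translation of the mRNA.

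Values are FPKM, fragment counts scaled by gene length and library size, which are per length, so that levels can be set side by side between genes. The 2 pairs of strains come in tables made separately, and each high-SAM strain was compared with the low-SAM strain of its own table. The recovered totals behind the scaling were 15376983 to 17656849 reads per library for the bikaverin strains and 40732040 to 45121327 for the pRS416 strains. A member held 3 to 3549 reads in a bikaverin library and 14 to 8462 reads in a pRS416 library. Among the 3 pRS416 high-SAM libraries, replicate 2 held the highest value for 38 of the 45 members. A gene was called higher or lower at a Benjamini-Hochberg adjusted p below 0.05 in limma, on log2(FPKM + 1), adjusted over all features tested. In bulk RNA, fewer cells of a type and less RNA per cell cannot be told apart.

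By the reference's names, 34 members belong to the large subunit and 11 to the small subunit, counting RSM22 with the small subunit by its symbol. All 45 coding regions are on 1 exon each, and they lie on 12 chromosomes, with 10 on chromosome IV. The median log2 fold change of all features on a chromosome lay between -0.17 and 0.10 in the bikaverin pair and between -0.16 and 0.10 in the pRS416 pair. 

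Nearly every member carried the letters of the Puf3 element just after its coding region. The element was searched as TGTANATA, in which N is any base, on the coding strand of the 200 bases after the stop codon in build R64. It was found for 44 of the 45 members (97.8%), for 33 of 33 further mitoribosomal genes (100%) and for 844 of the 6002 nuclear protein-coding genes (14.1%). RSM22 was the only member without it, and no match says only that these letters are not in this window. The sites printed here belong to 10 members described further on, among them members that rose in both pairs, rose in 1 pair or fell, so that the element can be read beside their values. Each is printed 5′ to 3′ on the coding strand with 8 bases on either side, and the capitals mark the element.
MRPL3, site nearer the stop codon: tgccatttTGTAGATAgagaactc
MRPL3, farther site: tacattctTGTACATAtatatata
MRP13: aacataccTGTAAATActaaaaag
MRPL32: cttaagccTGTATATAgaaactta
MRP1, nearer site: gtagtctcTGTAAATAtataaagt
MRPL7: attcgtcaTGTAAATAtataaact
RSM7: aacttgccTGTACATAaacacatt
MRPL37: ggtatcctTGTAAATAaatatgtg
RSM10: ttcgtactTGTAAATAaaataggt
MRPL51: attatactTGTATATAtaatttgg
MRP49: tttgttcaTGTATATAtcaaaaaa
In the order printed, the sites lie in R64 at chrXIII:323057-323080 and chrXIII:323092-323115 (plus strand), chrVII:647067-647090 (minus), chrIII:119209-119232 (plus), chrIV:1170186-1170209 (plus), chrIV:937567-937590 (plus), chrX:638195-638218 (minus), chrII:741641-741664 (plus), chrIV:540465-540488 (plus), chrXVI:730253-730276 (plus) and chrXI:133681-133704 (minus). Members that rose (MRPL3, MRP13), fell (RSM10) or moved in 1 pair (RSM7, MRPL51) thus carry the same 8 letters up to the open position.

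Across the members there were 54 such sites, with 1 in 34 members and 2 in 10. The open position was A in 20 sites, T in 19, C in 14 and G in 1, the nearer site of MRPL3. The site nearest the stop codon began 13 to 136 bases after it, with a median of 46.5 bases. In 42 members a site had a C 1 or 2 bases before it, as in MRP13 and RSM7. The 2 elements of MRPL19 lie end to end without overlap. With a window of 100 bases, 40 members held the element against 10.1% of all nuclear coding genes, and with 300 bases 44 members did against 16.2%.

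**Figure D1:**
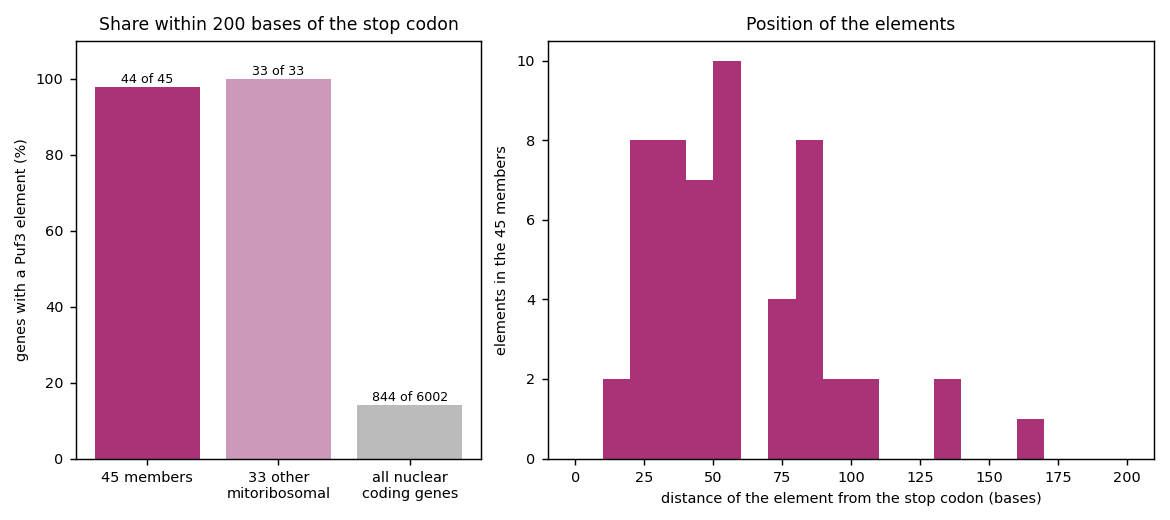
The left panel shows the percent of genes with the letters TGTANATA on the coding strand in the 200 bases after the stop codon, for the 45 members, 33 other mitoribosomal genes and all nuclear coding genes. The right panel is a histogram of the distance of the 54 member sites from the stop codon in bases. The element is in 44 of 45 members against 844 of 6002 genes, and most sites lie within 100 bases of the stop codon.

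Levels of the members lay close together. Between 31 and 39 of the 45 members had a group mean between 50 and 150 FPKM, depending on the group, and the median of the members' means was 71.1 (bikaverin low SAM), 85.0 (bikaverin high SAM), 74.7 (pRS416 low SAM) and 83.5 FPKM (pRS416 high SAM). RSM10 (uS10m, a protein of the head of the small subunit) was the highest in 3 of the 4 groups. Its mean was 297 ± 29.0 FPKM (SD, n = 3) in bikaverin low SAM, 1.83 times the next gene, MRP20, at 162 ± 0.343 FPKM. In bikaverin high SAM, RSM10 was at 199 ± 15.1 FPKM and MRP20 at 164 ± 5.72, followed by MRPL36 at 152 ± 3.67. MRP20 (uL23m, at the exit of the peptide tunnel) and MRPL36 (bL31m) thus stood next in order in both bikaverin groups, below the spread of RSM10.

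In pRS416 low SAM the order was RSM10 at 166 ± 8.78 FPKM, MRPL31 (mL60) at 148 ± 9.98 and MRP20 at 142 ± 4.22, and the latter pair did not differ beyond its spread. In pRS416 high SAM, MRPL31 led at 221 ± 43.0 FPKM, MRPL16 (uL16m) followed at 199 ± 23.0 and MRPL33 (uL30m) at 173 ± 25.1, whose ranges overlapped. At the low end, MRPL38 (uL14m) had 0.717 and 1.97 FPKM in the bikaverin groups and 1.16 and 1.02 in the pRS416 groups. MRPL51 (mL43) came next lowest, at 21.1 and 18.1 FPKM in the bikaverin groups and 6.61 and 3.31 in the pRS416 groups. By library, MRPL38 was listed at 1.17, 0.572 and 0.407 FPKM with low SAM and 1.96, 1.09 and 2.86 FPKM with high SAM in the bikaverin strains, and at 1.47, 1.22 and 0.798 and 0.883, 1.41 and 0.779 FPKM in the pRS416 strains. Its groups overlapped in both pairs. MRPL51 was at 16.4, 20.9 and 26.0 and 16.7, 22.3 and 15.4 FPKM in the bikaverin strains, where the groups also overlapped (adjusted p = 0.39). Both encode proteins of the same large subunit as genes listed near 100 FPKM, and both lie next to other listed features. MRPL51 shares 323 of its 423 coding bases (76.4%) with YPR099C on the opposite strand, and the counting's strand setting was not given in the sources used here. YKL169C, adjacent to MRPL38 by its name, was listed at 0.318 to 1.97 FPKM and 0.0599 to 0.615 FPKM in the 2 tables, and MRPL19 shares 113 of its 477 bases with YNL184C on the same strand. Values of MRPL38, MRPL51 and MRPL19 are therefore uncertain, and the part of these overlaps in them was not tested.

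**Figure D2:**
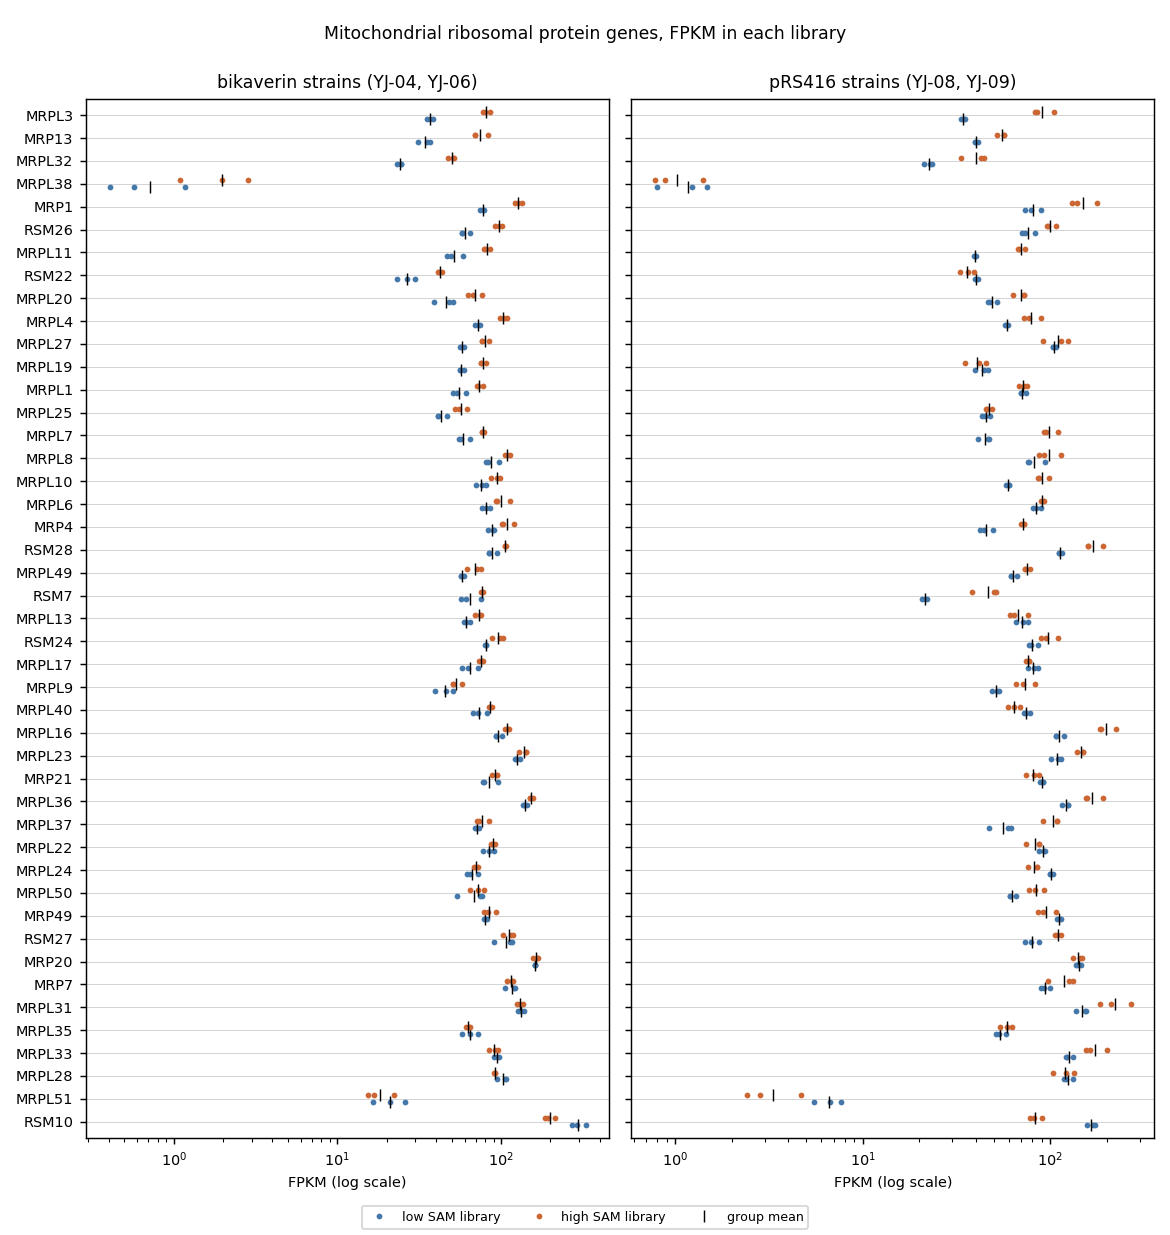
FPKM (log axis) of each of the 45 genes in each library, in rows ordered by the fold change of the bikaverin pair, with bikaverin strains on the left and pRS416 strains on the right. Points are libraries, blue for low SAM and orange for high SAM, and the vertical ticks are group means. Most genes lie between 50 and 150 FPKM, MRPL38 and MRPL51 lie far below, and RSM10 moves to the left with high SAM in both panels.

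In the bikaverin pair the members as a group leaned upward. With high SAM, 22 of the 45 members rose (48.9%), RSM10 fell (2.22%) and 22 were not called, where 28.8% of the 6459 features tested were called higher and 27.9% lower (56.7% in either direction). The median log2 fold change of the members was 0.25 (1.19-fold), beside 0.01 for all features, and 38 members had a positive value. The members spread less than features in general, with an SD of their log2 fold changes of 0.34 against 0.90. In 27 members all 3 high-SAM libraries lay above all 3 low-SAM libraries, in 2 they lay below and in 16 the groups overlapped, where 33.4% and 32.2% of all features were separated upward and downward. Of the large subunit 15 of 34 rose and none fell, and of the small subunit 7 of 11 rose and 1 fell.

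Among the called genes of the large subunit, the largest change in the bikaverin pair was that of MRPL3 (YMR024W, chromosome XIII, 321875 to 323047 on the plus strand), which encodes mL44, a protein related to ribonuclease III. MRPL3 was at 38.5, 36.9 and 35.2 FPKM in the low-SAM libraries and 86.0, 79.9 and 77.9 FPKM in the high-SAM libraries. Every high-SAM library was far above every low-SAM library. MRPL3 rose 2.21-fold, with a log2 fold change of 1.12 (SE 0.079, adjusted p = 3.0e-05). MRPL32 (YCR003W, chromosome III, 118620 to 119171 on the plus strand) encodes bL32m, whose precursor is trimmed by the m-AAA protease of the inner membrane before it joins the ribosome. MRPL32 was at 24.6, 24.6 and 23.3 FPKM with low SAM and 51.6, 50.8 and 47.7 FPKM with high SAM, 2 tight and separate groups. It rose 2.07-fold (log2 fold change 1.02, SE 0.077, adjusted p = 4.2e-05).

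Among small-subunit genes, MRP13 (YGR084C, chromosome VII, 647123 to 648142 on the minus strand; mS44) was at 30.9, 35.3 and 36.6 FPKM with low SAM and 83.5, 69.6 and 69.8 FPKM with high SAM. It rose 2.17-fold (log2 fold change 1.09, SE 0.11, adjusted p = 0.00013), and its groups were far apart. MRP1 (YDR347W, chromosome IV, 1169178 to 1170143 on the plus strand; mS43) and RSM26 (YJR101W, chromosome X, 618234 to 619034 on the plus strand; mS42) are both related in sequence to manganese superoxide dismutase, and both rose. MRP1 was at 74.95, 77.5 and 78.9 FPKM with low SAM and 134, 121 and 128 FPKM with high SAM (log2 fold change 0.72, adjusted p = 0.00019). RSM26 was at 58.0, 58.0 and 64.7 and then 102, 97.8 and 91.4 FPKM (log2 fold change 0.68, adjusted p = 0.00040). In neither gene did the groups overlap. RSM22 (YKL155C, chromosome XI, 159456 to 161342 on the minus strand), which encodes a methyltransferase-like protein associated with the small subunit, was at 23.2, 26.7 and 29.6 FPKM with low SAM and 43.3, 41.9 and 41.1 FPKM with high SAM. It rose 1.59-fold (log2 fold change 0.65, adjusted p = 0.0012) with no overlap between groups.

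RSM10 (YDR041W, chromosome IV, 539803 to 540414 on the plus strand), the most abundant member transcript, was the 1 member that fell in the bikaverin pair. It was at 272, 289.7 and 328 FPKM with low SAM and 215, 186 and 195 FPKM with high SAM, so that every high-SAM library was below every low-SAM one. The log2 fold change was -0.57 (SE 0.10, adjusted p = 0.0021). MRPL28 (mL40) also had all high-SAM libraries, 91.7, 91.1 and 91.4 FPKM, below the low-SAM ones, 106, 94.9 and 108 FPKM, but was not called (adjusted p = 0.11).

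Other large-subunit genes that rose in the bikaverin pair include proteins of the stalk base and the tunnel exit. MRPL11 (uL10m, of the stalk) rose with a log2 fold change of 0.66, MRPL19 (uL11m, of the stalk base) with 0.43, MRPL1 (uL1m, of the L1 stalk) with 0.41 and MRPL4 (uL29m, at the tunnel exit) with 0.51. MRPL20 (mL58) rose with 0.58, MRPL27 (mL41) with 0.46, MRPL25 (mL59) with 0.40 and MRPL7 (uL5m, of the central protuberance) with 0.39. These changes were between 1.31-fold (MRPL7) and 1.59-fold (MRPL11).

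The smallest calls of the bikaverin pair depended on which libraries were kept. RSM24 (mS35) was at 81.5, 80.8 and 80.1 FPKM with low SAM and 102, 87.7 and 98.7 FPKM with high SAM (log2 fold change 0.25, adjusted p = 0.036). MRPL13 (mL50) was at 59.1, 61.0 and 64.3 and 75.1, 69.7 and 74.9 FPKM (log2 fold change 0.25, adjusted p = 0.026), and MRPL49 (bL21m) at 59.7, 57.1 and 57.1 and 75.5, 61.7 and 71.5 FPKM (log2 fold change 0.25, adjusted p = 0.048). None of the 3 genes had overlapping groups. RSM28 (mS46) was at 84.1, 84.1 and 94.6 and 108, 106 and 105 FPKM (log2 fold change 0.28, adjusted p = 0.018). These 4 calls and those of MRP4, MRPL6, MRPL8 and MRPL10 were lost when a library was left out, and 15 to 22 members were then called higher. Without low-SAM replicate 1 all 8 were lost, without low-SAM replicate 2 all but MRPL10, without low-SAM replicate 3 RSM24, MRPL10 and MRPL49, and without high-SAM replicate 1 RSM24 and MRPL49. Without high-SAM replicate 2 RSM28, MRPL6, MRP4 and MRPL10 were lost, and without high-SAM replicate 3 MRPL8, MRPL6, RSM24, MRPL13 and MRPL49. The adjusted p in those fits was 0.052 (MRP4) to 0.12 (MRPL49).

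In the pRS416 pair more members passed the test, and more of them fell. With high SAM, 25 of the 45 members rose (55.6%), 5 fell (11.1%) and 15 were not called, where 39.1% of the 6342 features tested were called higher and 38.4% lower (77.5% in either direction). The median log2 fold change of the members was 0.32 (1.24-fold) beside -0.01 for all features, their SD was 0.48 against 1.17, and 31 had a positive value. In 25 members the high-SAM libraries all lay above the low-SAM ones, in 7 below, and in 13 the groups overlapped, where 40.4% and 39.9% of all features were separated upward and downward. Of the large subunit 17 of 34 rose and 4 fell, and of the small subunit 8 of 11 rose and 1 fell.

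MRPL3 had the largest fold change of the pRS416 pair, being at 35.0, 34.8 and 33.4 FPKM with low SAM and 84.5, 104 and 83.1 FPKM with high SAM. It rose 2.64-fold (log2 fold change 1.37, SE 0.090, adjusted p = 8.5e-07), with high-SAM replicate 2 the highest. MRPL7 (YDR237W, chromosome IV, 936615 to 937493 on the plus strand) was at 47.1, 46.5 and 41.3 FPKM with low SAM and 94.5, 110.3 and 92.2 FPKM with high SAM. It rose 2.20-fold (log2 fold change 1.12, SE 0.086, adjusted p = 2.3e-06), and the groups were separate by a wide gap. RSM7 (YJR113C, chromosome X, 638232 to 638975 on the minus strand), which encodes uS7m of the head of the small subunit, was at 21.6, 20.7 and 22.1 FPKM with low SAM and 38.3, 50.3 and 51.2 FPKM with high SAM. It rose 2.17-fold (log2 fold change 1.07, SE 0.11, adjusted p = 1.4e-05).

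MRPL37 (YBR268W, chromosome II, 741299 to 741616 on the plus strand; mL54) was at 62.1, 59.4 and 47.3 FPKM with low SAM and 91.6, 109 and 109 FPKM with high SAM (log2 fold change 0.87, adjusted p = 7.8e-05). MRP1 was at 89.3, 79.5 and 73.8 FPKM with low SAM and 139.6, 178 and 131 FPKM with high SAM (log2 fold change 0.87, adjusted p = 0.00011). Neither gene had overlapping groups, and RSM26, the relative of MRP1 in sequence, rose as well, from 82.8, 73.7 and 71.0 to 96.1, 108 and 96.9 FPKM (log2 fold change 0.40, adjusted p = 0.0012). MRPL16 (YBL038W, chromosome II, 146187 to 146885 on the plus strand), whose protein uL16m lies near the peptidyl transferase centre, was at 119, 107 and 108 FPKM with low SAM and 186, 225 and 184 FPKM with high SAM (log2 fold change 0.82, adjusted p = 2.5e-05). MRPL31 (YKL138C, chromosome XI, 185286 to 185681 on the minus strand) was at 153, 136 and 154 and 212, 269 and 184 FPKM (log2 fold change 0.56, adjusted p = 0.0027), with its high-SAM libraries the most spread of these genes. MRPL32 was at 21.2, 23.4 and 22.8 FPKM with low SAM and 42.6, 44.1 and 33.5 FPKM with high SAM (log2 fold change 0.80, adjusted p = 8.7e-05). Among the other members that rose, the log2 fold change was 0.79 for MRPL11, 0.65 for MRP4 (uS2m), 0.59 for MRPL10 (uL15m) and 0.58 for RSM28.

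RSM10 fell in the pRS416 pair too, and by more. It was at 173, 168 and 156 FPKM with low SAM and 78.4, 90.3 and 81.7 FPKM with high SAM, 1.99-fold lower (log2 fold change -0.98, SE 0.074, adjusted p = 2.0e-06). The 4 other members that fell all belong to the large subunit. MRPL51 was at 5.53, 6.65 and 7.64 FPKM with low SAM and 2.83, 4.70 and 2.41 FPKM with high SAM (log2 fold change -0.84, adjusted p = 0.0043), a low transcript whose coding region is mostly shared with another feature. MRPL24 (bL28m) was at 104, 99.3 and 99.2 and 85.4, 84.6 and 76.1 FPKM (log2 fold change -0.30, adjusted p = 0.0028). MRP49 (mL61) was at 109, 112 and 114 and 91.9, 107 and 86.5 FPKM (log2 fold change -0.23, adjusted p = 0.027), and MRPL40 (uL24m) at 77.6, 72.4 and 74.0 and 64.1, 68.8 and 59.8 FPKM (log2 fold change -0.22, adjusted p = 0.018). All 5 had non-overlapping groups, but the falls of MRPL24, MRP49 and MRPL40 were at most 1.23-fold.

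Leaving out 1 library ended 4 calls of the pRS416 pair. The call of MRPL40 was lost without low-SAM replicate 1 (adjusted p = 0.068). MRP49 was lost without low-SAM replicate 2 or 3 or high-SAM replicate 1 or 3 (0.075 to 0.085), MRP7 (bL27m) without low-SAM replicate 2 or 3 or high-SAM replicate 1 or 2 (0.067 to 0.086), and RSM24 without low-SAM replicate 2 or 3 (0.059 to 0.070). RSM22 was not called in this pair (log2 fold change -0.15, adjusted p = 0.078), but was called lower without high-SAM replicate 2 (-0.21, adjusted p = 0.023).

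Markers of haploid cells moved with the pRS416 comparison. The 10 genes listed as such markers include STE2 and STE3, so not all are expressed in each mating type. Their summed level was 958 to 999 FPKM in pRS416 low SAM and 127 to 150.5 FPKM in pRS416 high SAM. All 10 fell, where 38.4% of all features were called lower. In the bikaverin strains the sum was 658 to 700.1 FPKM with low SAM and 782 to 952 FPKM with high SAM. There 6 were called higher and 1 lower, where 28.8% and 27.9% of all features were. None of the 10 was listed at 0 in any library. Their part in the changes of the mitoribosomal genes was not tested.

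A set of 14 members rose in both pairs. Of the 22 that rose in the bikaverin pair and the 25 that rose in the pRS416 pair, 14 were in both lists (63.6% and 56% of them). Over the 6160 features tested in both pairs, 1181 were higher in both, 65.7% of those higher in the bikaverin pair and 48.3% of those higher in the pRS416 pair, so the first share of the members was near that of all features. They were MRPL3, MRPL4, MRPL7, MRPL10, MRPL11, MRPL20, MRPL32 and MRPL49 of the large subunit and MRP1, MRP4, MRP13, RSM24, RSM26 and RSM28 of the small subunit. RSM10 was lower in both (2.22% of the members, beside 19.2% of all features), and no member was called in opposite directions, beside 9.01% of all features. Across the 45 members the log2 fold changes of the 2 pairs had a Pearson's r of 0.50 and a Spearman's rho of 0.33, as a description across genes, beside 0.59 and 0.51 over the 6160 features. By these correlations the likeness between the pairs was no closer for these genes than over all features. An opposite call needs a lower call, and only 1 member was called lower in the bikaverin pair and 5 in the pRS416 pair. The lack of opposite calls therefore does not show whether the likeness was closer. The correlations of the members also rest on a narrower spread of log2 fold changes. Their SD was 0.34 (bikaverin pair) and 0.48 (pRS416 pair), beside 0.90 and 1.17 for all features. The 7 called in neither pair were MRPL17, MRPL22, MRPL28, MRPL35, MRPL38, MRP20 and MRP21. MRP20, at the tunnel exit, was nearly level throughout, at 162, 162 and 162 and 158, 169 and 165 FPKM in the bikaverin pair and 141, 146 and 138 and 132, 147 and 144 FPKM in the pRS416 pair.

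**Figure D3:**
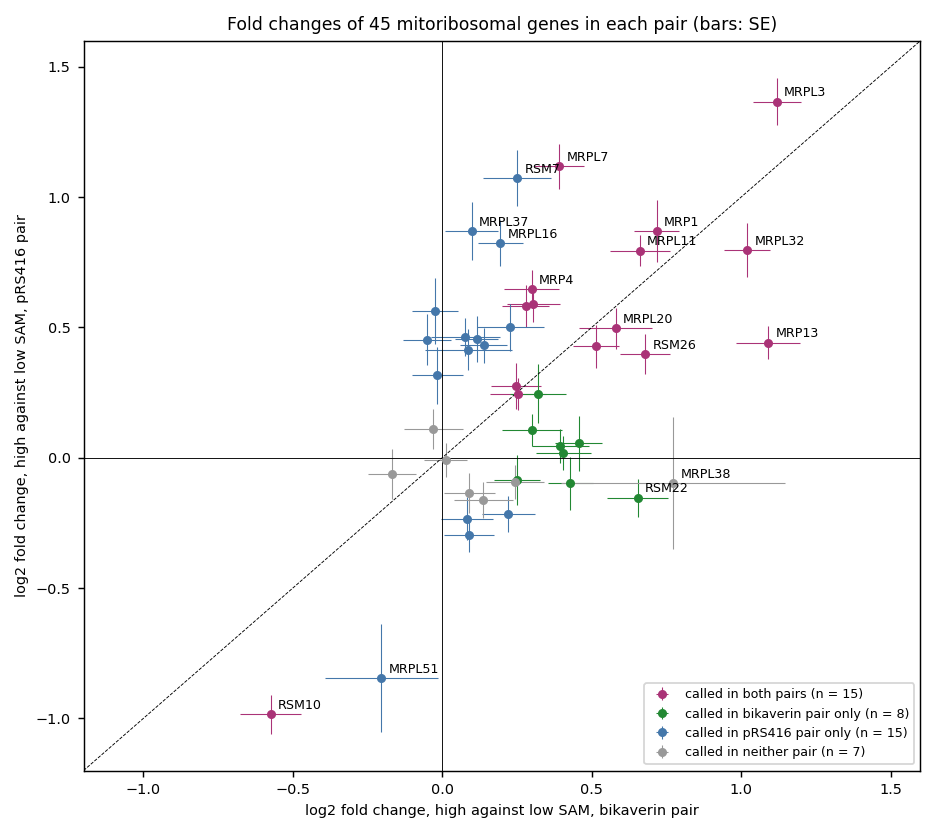
Log2 fold change of high over low SAM for each of the 45 genes, bikaverin pair on the horizontal and pRS416 pair on the vertical axis, with bars for the SE, colours for the pairs in which a gene was called, and a dashed line of equal change. MRPL3, MRP1, MRPL32 and MRP13 lie at the upper right, RSM10 at the lower left, RSM7, MRPL37, MRPL16 and MRPL7 above the line, and RSM22 below it.

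The difference between the pairs was tested itself, as the bikaverin change minus the pRS416 change in 1 fit of all 12 libraries. It was called for 24 of the 45 members, 12 higher and 12 lower, where 28% of the 6259 features tested were called higher and 29.8% lower (57.8% in either direction), so the members' shares (26.7% each way) were near those of all features. The median over the members was 0.02, beside -0.00 for all features. Of the 8 members called higher in the bikaverin pair alone, the difference was called for 6, and of the 11 called higher in the pRS416 pair alone, for 8. It was called for 3 of the 4 called lower in the pRS416 pair alone and for 5 of the 14 that rose in both. These classes were set by the same values that make up the difference, so a call in 1 pair alone favours a called difference. The same shares over all features were not counted, and nothing particular to the members is read from them. Strain pair, table and sequencing depth cannot be told apart in this comparison. Without pRS416 low-SAM replicate 2 only 6 members were called lower in place of 12, the lost ones being MRPL36, MRPL23, RSM28, RSM27, MRP4 and MRPL10.

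RSM22 had the largest called difference in the bikaverin direction. In contrast to its rise in the bikaverin pair, it was at 40.4, 39.5 and 41.0 FPKM in pRS416 low SAM and 36.5, 39.0 and 33.1 FPKM in pRS416 high SAM, and the difference was 0.81 on the log2 scale (SE 0.13, adjusted p = 0.00014). RSM22 is also the member whose 3′ flank held no Puf3 element, and any link of this to its difference was not tested. MRP13 rose in both pairs but by more in the bikaverin pair, being at 39.6, 39.7 and 41.3 and 56.4, 56.9 and 51.7 FPKM in the pRS416 strains (difference 0.65, adjusted p = 0.00068). MRPL19 was at 55.8, 56.5 and 59.7 and 76.0, 81.0 and 75.6 FPKM in the bikaverin pair and at 44.2, 39.6 and 46.4 and 41.7, 45.2 and 34.9 FPKM in the pRS416 pair (difference 0.53, adjusted p = 0.0042). MRPL40, which fell in the pRS416 pair, was at 67.7, 71.9 and 81.6 and 84.3, 87.7 and 85.6 FPKM in the bikaverin pair (difference 0.44, adjusted p = 0.0050). The difference of RSM10 was 0.41 (adjusted p = 0.015), its fall being smaller in the bikaverin pair.

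In the other direction, RSM7 had the largest difference. It was at 75.9, 61.4 and 56.6 FPKM in bikaverin low SAM and 76.5, 78.0 and 75.2 FPKM in bikaverin high SAM, where replicate 1 of the low-SAM group was already at the high-SAM level, and the difference was -0.82 (SE 0.17, adjusted p = 0.00099). MRPL37 was at 70.6, 73.8 and 68.9 and 71.7, 73.2 and 84.3 FPKM in the bikaverin pair (difference -0.77, adjusted p = 0.00086). MRPL7, at 57.0, 55.2 and 64.4 and 79.1, 76.2 and 77.0 FPKM there, rose in both pairs but by more in the pRS416 pair (difference -0.73, adjusted p = 0.00028). MRPL16 was at 92.6, 101 and 92.8 and 113, 109.9 and 106 FPKM in the bikaverin pair (difference -0.63, adjusted p = 0.00070), and MRPL31 at 127, 133 and 139 and 132, 126 and 135 FPKM (difference -0.59, adjusted p = 0.0071). In all, 8 members were called higher in the pRS416 pair and not in the bikaverin pair with a called difference, namely MRPL16, MRPL23, MRPL31, MRPL33, MRPL36 and MRPL37 of the large subunit and RSM7 and RSM27 of the small subunit. MRPL33 was at 97.8, 94.3 and 90.5 and 84.7, 95.9 and 92.2 FPKM in the bikaverin pair and 132, 122 and 122 and 163, 202 and 155 FPKM in the pRS416 pair. MRPL36 was at 137, 139 and 144 and 149.6, 149.8 and 156 FPKM and at 124, 116 and 124 and 157, 190.4 and 155 FPKM, higher in every high-SAM library of both pairs. The superoxide dismutase-like genes showed no called difference, at -0.15 for MRP1 (SE 0.15, adjusted p = 0.41) and 0.28 for RSM26 (SE 0.12, adjusted p = 0.053). That of RSM26 was called after quantile normalization and in some fits that left out 1 library. These were without replicate 3 of bikaverin low SAM, bikaverin high SAM or pRS416 low SAM, or without replicate 2 of pRS416 high SAM.

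Summed over the 45 members, the level was 3340, 3460 and 3646 FPKM in bikaverin low SAM and 4068, 3957 and 4005 FPKM in bikaverin high SAM. In the pRS416 strains it was 3489, 3295 and 3339 FPKM with low SAM and 3989, 4565 and 3898 FPKM with high SAM. The low and high groups did not overlap in either pair, and the high-SAM sum of the pRS416 strains was the most spread, with replicate 2 the highest. PUF3, the gene of the RNA-binding protein, was at 25.8, 25.3 and 30.9 FPKM in bikaverin low SAM and 33.4, 33.7 and 32.5 FPKM in bikaverin high SAM (log2 fold change 0.28, adjusted p = 0.043). In the pRS416 strains PUF3 was at 18.5, 19.3 and 18.4 FPKM with low SAM and 41.5, 46.3 and 41.3 FPKM with high SAM (log2 fold change 1.16, adjusted p = 4.5e-07). PUF3 transcripts thus rose in both pairs, by less in the bikaverin pair (difference -0.88, adjusted p = 4.3e-05). HAP4, the activating subunit of the HAP complex that drives respiratory genes, moved in opposite directions. HAP4 was at 276, 304 and 262 FPKM in bikaverin low SAM and 118, 128 and 131 FPKM in bikaverin high SAM (log2 fold change -1.15, adjusted p = 4.5e-05). In the pRS416 strains it was at 94.5, 108 and 112 FPKM with low SAM and 1394, 1861 and 1281 FPKM with high SAM (log2 fold change 3.82, adjusted p = 1.6e-08), and the difference between the pairs was -4.97 (adjusted p = 6.9e-10).

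**Figure D4:**
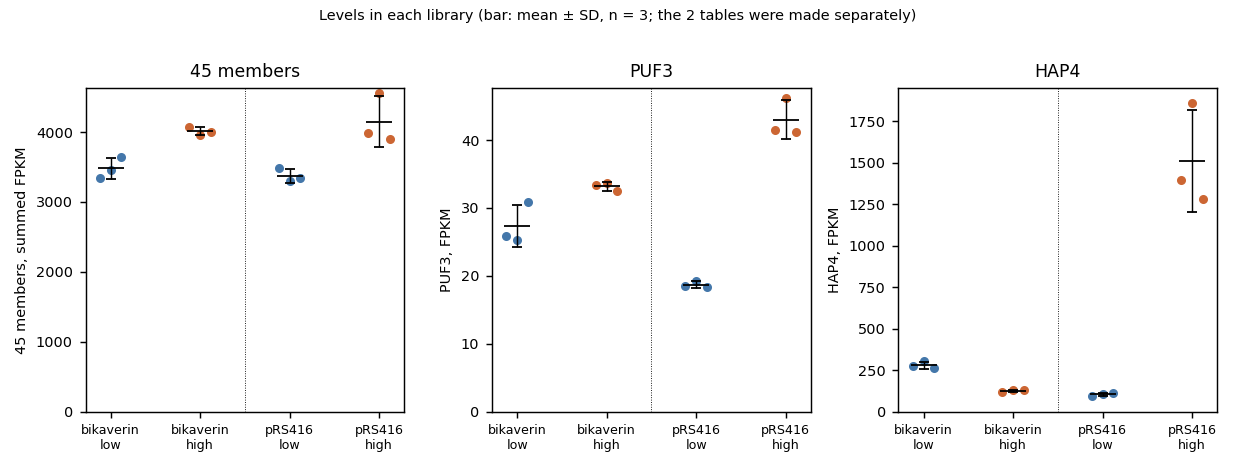
Summed FPKM of the 45 members (left), FPKM of PUF3 (middle) and FPKM of HAP4 (right) in each library, with the mean and SD of each group of 3. The sum of the members is higher with high SAM in both pairs, PUF3 rises in both, and HAP4 is lower with high SAM in the bikaverin strains and far higher in the pRS416 strains.

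Other genes with the Puf3 element were set beside the members. Outside the mitoribosomal lists, 253 of 757 tested genes with the element rose in the bikaverin pair (33.4%) and 180 fell (23.8%), beside 28.7% and 29.6% of genes without it. In the pRS416 pair 327 of 758 rose (43.1%) and 248 fell (32.7%), beside 39.3% and 40.1% of genes without it. Their medians were 0.06 and 0.05, below the 0.25 and 0.32 of the members. The difference between the members and the other genes with the element was not tested.

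Motifs around the start codon were no more frequent in the members than in all nuclear coding genes. The window ran from 250 bases before to 50 bases after the start codon, and both strands were searched. CCAAT, which the HAP complex binds, was in 40% of the members and 43.3% of all genes. CACGTG, bound by Cbf1 and its Met4 partner, was in RSM7 alone (2.22% against 2.92%). AAAATTTT, the RRPE core, was in MRPL24 and MRP49 (4.44% against 9.03%), and GATGAG, the PAC core, was in 6 members (13.3% against 20.4%). Both matches of AAAATTTT lay after the start codon, within the coding region, as did CCAAT in MRPL20, MRPL23, MRPL24 and RSM24. No match of 1 motif in a member overlapped a match of another. Of the 18 members with CCAAT 8 rose and 1 fell in the bikaverin pair and 11 rose and 2 fell in the pRS416 pair, and of the 27 without it 14 rose and none fell, and 14 rose and 3 fell. Of all features, 28.8% were called higher and 27.9% lower in the bikaverin pair, and 39.1% and 38.4% in the pRS416 pair. MRPL24 and MRP49, the members with AAAATTTT, both fell in the pRS416 pair, and neither was called in the bikaverin pair. The call of MRP49 was lost in 4 of the fits that left out 1 library. Calls of all genes with each motif were not counted.

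For 28 members the gene before the start codon runs the other way, so that both are transcribed from 1 shared interval. Of these neighbours 26 were tested in each pair. Member and neighbour were both called in 9 cases in the bikaverin pair, 6 in the same direction and 3 in opposite directions, and in 9 cases in the pRS416 pair, 5 and 4. The same tally over all gene pairs of this orientation was not made, and a part of the shared interval in these changes was not tested. The largest neighbour changes were those of CMI8 in the bikaverin pair (-2.88), beside MRPL28, which was not called, and of ENA1 in the pRS416 pair (-3.36; -2.05 in the bikaverin pair). ENA1 encodes a plasma membrane sodium pump and lies 1335 bases from RSM10, which fell in both pairs. LSM3 fell in both pairs (-0.33 and -0.30) beside MRPL4, which rose in both. MRPL32 lies 271 bases from CDC10, a septin gene, and both rose in both pairs (CDC10 by 0.50 and 1.85 on the log2 scale). MRPL7 rose in both pairs, whereas FMN1, its neighbour at 722 bases, was not called in either (-0.22 and -0.08).

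The remaining genes of the mitochondrial ribosome, whose names follow other patterns or were not in the chosen set, also rose more often than they fell. Of 34 further mitoribosomal genes, 13 rose and 5 fell in the bikaverin pair (median 0.16), and 21 rose and 3 fell in the pRS416 pair (median 0.30). The shares over all features were 28.8% higher and 27.9% lower in the bikaverin pair, and 39.1% and 38.4% in the pRS416 pair. The list holds KGD4, entered as YMR31, which the reference names as a subunit of another complex, and without it the counts were 13 and 4 of 33, and 20 and 3. MRPS5 (uS5m) fell in both pairs like RSM10, from 95.1 to 66.5 FPKM and from 94.3 to 51.8 FPKM. YML6 (uL4m) rose in both, from 100.01 to 120.0 FPKM and from 82.7 to 150.04 FPKM. RML2 (uL2m, at the peptidyl transferase centre) rose from 63.1 to 92.6 FPKM and from 77.7 to 101 FPKM. Unlike the members, some genes of this list were called in opposite directions, as were 9.01% of all features. MRPS12 (log2 fold changes -0.35 and 0.36) and EHD3 (-0.29 and 0.17) fell in the bikaverin pair and rose in the pRS416 pair, as did KGD4. PET123 rose in the bikaverin pair (0.28) and fell in the pRS416 pair (-0.38).

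Mitochondrial aminoacyl-tRNA synthetases, which charge the tRNAs the ribosome uses, rose in most cases. In the bikaverin pair 11 of 13 rose and none fell (median 0.43), beside 28.8% and 27.9% of all features. In the pRS416 pair 9 rose and 3 fell (median 0.66), beside 39.1% and 38.4% of all features. MST1, for threonine, rose from 11.3 ± 0.428 to 31.2 ± 1.74 FPKM and from 6.36 ± 0.547 to 34.7 ± 0.605 FPKM (SD, n = 3). MSF1, for phenylalanine, rose from 15.6 to 29.5 FPKM and from 6.80 to 33.8 FPKM, and MSW1, for tryptophan, from 19.1 to 29.3 FPKM and from 9.501 to 39.1 FPKM. Each of these 3 log2 fold changes (1.38, 0.88 and 0.60, then 2.28, 2.16 and 1.94) was above the median of the members in the same pair. The 3 genes were named for their small p within the list, which favours this, so it describes these genes alone.

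Of 9 genes of mitoribosome assembly and rRNA modification, 7 rose and 2 fell in the bikaverin pair, beside 28.8% and 27.9% of all features. In the pRS416 pair 7 rose and none fell, beside 39.1% and 38.4% of all features. AFG3 and YTA12, the subunits of the m-AAA protease that trims the MRPL32 product, rose in both pairs as MRPL32 did. AFG3 went from 83.7 to 142 FPKM and from 89.4 to 205 FPKM, and YTA12 from 87.6 to 107 FPKM and from 76.8 to 169 FPKM. MRH4, a helicase of large-subunit assembly, rose from 13.8 to 29.3 FPKM and from 10.4 to 15.9 FPKM. MRM2, which methylates the large rRNA, fell in the bikaverin pair from 68.5 to 50.2 FPKM and was at 68.6 and 68.3 FPKM in the pRS416 pair.

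Further lists covered translation factors, activators and mtDNA upkeep, to be read beside the 28.8% higher and 27.9% lower of all features in the bikaverin pair and 39.1% and 38.4% in the pRS416 pair. Of 10 translation factors 4 rose and 2 fell in the bikaverin pair, and 5 rose and 3 fell in the pRS416 pair. Of 16 genes listed as mitochondrial translational activators, among them the helicase gene MSS116, 2 rose and 4 fell, and 5 rose and 4 fell. Of 6 genes of mitochondrial transcription and mtDNA upkeep 2 rose and 2 fell, and 2 rose and 4 fell. RPO41, the mitochondrial RNA polymerase, rose in both pairs (log2 fold changes 0.49 and 0.90), while ABF2, which packages mtDNA, fell in both (-0.39 and -1.78). Transcripts of the mitochondrial genome were nearly absent from the tables. Summed over the 8 mtDNA features listed of 10 searched, they were at 3.53 to 4.55 FPKM in bikaverin low SAM, 1.08 to 2.31 in bikaverin high SAM, 3.98 to 5.44 in pRS416 low SAM and 18.9 to 40.6 in pRS416 high SAM. In the bikaverin pair none passed the filter on low values, and in the pRS416 pair the 3 that did were called higher. ATP8 and VAR1 were not analysed here, and the part of mitochondrial transcripts in the changes of the members was not tested.

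**Figure D5:**
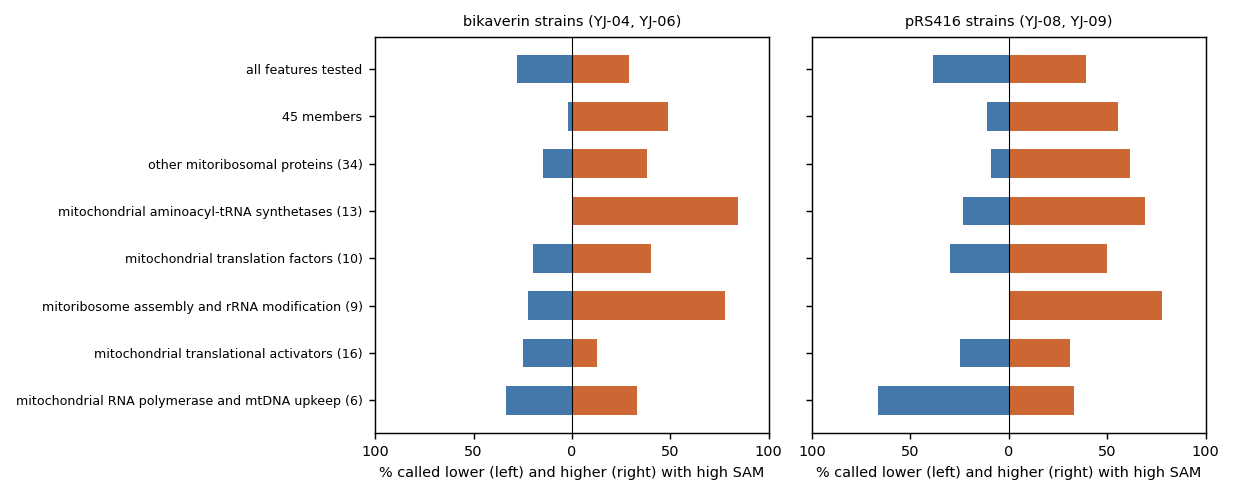
Percent of tested genes called higher (orange, to the right) and lower (blue, to the left) with high SAM in each pair, for all features, the 45 members and 6 further lists of mitochondrial translation, with the number tested in brackets. The members, the synthetases and the assembly genes lie mostly to the right in both panels, beside 28.8% and 39.1% of all features called higher.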

How the data were processed

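RNA was sequenced from 12 libraries at 36 h. The authors deposited FPKM values in 2 tables, 1 per strain pair. Per the submitters' processing notes, fastp, HISAT2 2.0.5 and featureCounts 1.5.0-p3 were used with build R64. Strand setting, annotation and filters: not given in the sources used here. Table headers were matched to sample titles by library name, since another label field gives other column names. In all, 5946 (86.9%) and 5936 (87.1%) features matched the R64 reference, after 464 identifiers of the pRS416 table and 2 of the bikaverin table were restyled. FPKM times coding length gave whole reads, within 0.02, for 97.3% to 98.8% of values under 1000 reads, which gave the depth. A count of 3 reads in a gene of 1 kb equals 0.170 to 0.195 FPKM in bikaverin libraries and 0.0665 to 0.0737 in pRS416 libraries, for counting error only.

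Each pair was fitted with limma 3.58.1 in R 4.3.3 (variance trend, two-sided, no replicate block) on log2(FPKM + 1), which understates changes of low genes, on features averaging at least 1 FPKM, which all 45 members did. Fold changes are ratios of mean FPKM. The fits were tested on simulated data. Alternatives were pseudocounts of 0.1 and 5, other filters, quantile and median scaling, no trend, a replicate block and leaving out libraries. Members given library by library were the 5 largest and 5 smallest calls of each comparison, the highest and lowest levels, RSM22, MRP1 and RSM26. Of the other lists, genes of smallest p were named. TSF1 was not matched. The members and all lists were chosen with earlier results of these data known. ENA1, CMI8, LSM3, CDC10, FMN1, MRPS5, YML6, RML2, MRPS12, EHD3, PET123, MRM2, MRPL28, RPO41 and ABF2 were named after their values were seen.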

Additional observations from a re-analysis of the deposited data

Results flagged for a closer look

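The change with high SAM differed between the pairs, by the test of the difference itself in limma, for 24 members. The values below are the bikaverin change minus the pRS416 change on the log2 scale. The change was more negative or less positive in the bikaverin pair for RSM7 (-0.82), MRPL37 (-0.77), MRPL7 (-0.73), MRPL16 (-0.63), MRPL31 (-0.59) and MRPL33 (-0.51). It was so by less for RSM27 (-0.39), MRP4 (-0.35), MRPL36 (-0.34), RSM28 (-0.30), MRPL23 (-0.29) and MRPL10 (-0.29).

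The change was more positive or less negative in the bikaverin pair for RSM22 (0.81), MRP13 (0.65), MRPL19 (0.53), MRPL40 (0.44), RSM10 (0.41) and MRPL27 (0.40). Smaller values of this direction were those of MRPL1 (0.39), MRPL24 (0.39), MRPL25 (0.35), MRPL17 (0.34), MRPL13 (0.33) and MRP49 (0.32). Of the 24 differences, 11 were lost when at least 1 of the 12 libraries was left out, with adjusted p-values of 0.050 (MRPL27) to 0.11 (MRPL10) in those fits. They were MRPL10, MRPL13, MRPL17, MRPL23, MRPL25, MRPL27, MRPL36, MRP4, MRP49, RSM27 and RSM28. The strain pair, the table and the depth of its libraries cannot be told apart in these values.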

How the results depend on the processing

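Each pair was fitted again under 14 alternatives and the difference under 20, and no call of a named member reversed. The median of the members in the pRS416 pair, 0.3157, was 0.3983 with a mean of at least 10 FPKM and 0.4065 without MRPL38, MRPL51 and MRPL19, an alternative chosen after seeing the data. The median of the difference was 0.0829 after quantile normalization, against 0.0216. Leaving out 1 library gave 15 to 22 members higher and 1 lower in the bikaverin pair (median 0.2304 to 0.2814), 23 to 26 higher and 4 to 6 lower in the pRS416 pair (median 0.2328 to 0.41), and 8 to 14 higher and 6 to 14 lower for the difference (median -0.0219 to 0.0935). The cause of these moves was not tested.

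Same-numbered libraries did not deviate together (correlations of -0.136 to 0.120) more than differently numbered ones (-0.156 to 0.153). The labels do not say whether the numbers pair the libraries, and these correlations cannot decide it. With a replicate block, 19 of 23 calls were kept in the bikaverin pair, 30 of 30 in the pRS416 pair and 16 of 24 for the difference. Leaving out 1 library kept 15 to 21, 27 to 29 and 16 to 22 of these calls, and the other filters, pseudocounts, scalings and no trend kept 22 or 23, 29 or 30 and 21 to 24. Depth limits MRPL38, which had as few as 3 reads in a bikaverin library.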
